A study of Homo sapiens with 6 samples.

Results

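The regions described here are γH2AX peaks in the interiors of human chromosomes 5, 6, 8 and 10. A peak was a member if its midpoint lay at least 5 Mb from the start of the chromosome and at least 5 Mb before the highest position that any of 4 deposited peak lists reached on it. Stretches beside the centromeres were left out (43 to 53 Mb on chromosome 5, 56 to 66 on chromosome 6, 41 to 51 on chromosome 8 and 37 to 45 on chromosome 10). This gave 1245 of the 12579 peaks (9.90%) on 553 Mb, which was 18.6% of the span of all chromosomes. The members were 168 peaks of the UNG wild-type (WT) pemetrexed list, 278 of the UNG knockout (KO) pemetrexed list, 247 of the WT cisplatin list and 552 of the KO cisplatin list. The choice rested on where peaks lay, with the numbers of peaks per chromosome already known, so numbers of members and ratios of such numbers are a description and no test was made on them.

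DLD1 cells, a human colorectal cancer line without working mismatch repair, had the genotype UNG+/+ (WT) or UNG-/- (KO). They were treated with pemetrexed, treated with cisplatin or left untreated, and γH2AX was mapped by chromatin immunoprecipitation and sequencing (ChIP-seq) in 6 libraries, 1 per group. The 4 treated libraries each gave 1 peak list, and the 2 untreated libraries were not analysed here. The sources used here do not state doses, treatment times, read depths or whether the knockout is a single clone. With 1 library per group no difference between lists has a replicate check. All intervals are exact 95% intervals that cover counting error alone, and they are too narrow where neighbouring peaks belong together.

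γH2AX is histone H2AX phosphorylated at its tail. The mark spreads over chromatin on either side of a DNA double strand break, where it helps to hold repair proteins, so it usually forms domains much wider than the break itself. UNG is the uracil DNA glycosylase that cuts uracil out of DNA as the opening step of base excision repair. Pemetrexed is an antifolate that blocks thymidylate synthase and favours the misincorporation of uracil for thymine, whereas cisplatin mainly crosslinks neighbouring purines. Chromosome interiors hold long gene-poor stretches between gene-rich ones, while the ends of many human chromosomes are rich in genes and in G and C. The design asked how loss of UNG changes the genomic distribution of γH2AX after either drug.

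The interiors carried few of the KO pemetrexed peaks. They held 5.27% of that list (278 of 5278, interval 4.68 to 5.90%), against 18.2% of the WT pemetrexed list (168 of 924, 15.7 to 20.8%), 13.7% of the WT cisplatin list (247 of 1807, 12.1 to 15.3%) and 12.1% of the KO cisplatin list (552 of 4570, 11.1 to 13.1%). The WT pemetrexed share was close to the 18.6% of the span that the interiors make up, and the KO pemetrexed share was the lowest of the 4. In density, the interiors held 3.04 WT pemetrexed, 5.02 KO pemetrexed, 4.46 WT cisplatin and 9.97 KO cisplatin peaks per 10 Mb. Over the rest of the genome the same densities were 3.12, 20.6, 6.43 and 16.6 peaks per 10 Mb. The WT pemetrexed density thus lay near its value elsewhere, and the KO pemetrexed density was the one farthest below it.

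The KO lists held more members than the WT lists after both drugs. After pemetrexed there were 1.65 times as many KO as WT members (interval 1.36 to 2.02), and after cisplatin 2.23 times as many (1.92 to 2.61). The pemetrexed ratio divided by the cisplatin ratio was 0.740 (0.577 to 0.952). Outside the interiors the KO over WT ratios were 6.61 (6.13 to 7.15) for pemetrexed and 2.58 (2.43 to 2.73) for cisplatin, and the ratio of ratios was 2.57 (2.33 to 2.83). The cisplatin ratio was therefore similar in and outside the interiors, and the order of the drugs was the opposite. Within KO cells the pemetrexed list held 0.504 times as many members as the cisplatin list (0.434 to 0.583), against 1.24 times outside (1.19 to 1.30). In WT cells the same ratio was 0.680 (0.556 to 0.831) in the interiors and 0.485 (0.444 to 0.529) outside.

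These ratios moved with the way peaks were counted. With members within 100 kb joined, 161 WT and 142 KO pemetrexed regions remained, a KO over WT ratio of 0.882 (0.699 to 1.11). With members of at least 600 bp alone, 46 WT and 275 KO pemetrexed peaks gave 5.98, and the ratio of ratios turned to 1.47 (0.999 to 2.18). Outside the interiors that limit kept 289 WT and 4937 KO pemetrexed peaks, and 954 WT and 3623 KO cisplatin peaks. The outside ratios of 6.61 and 2.57 above hold peaks of all widths, so they are not the like values for 5.98 and 1.47. Joined peaks were not counted outside the interiors.

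**Figure D1:**
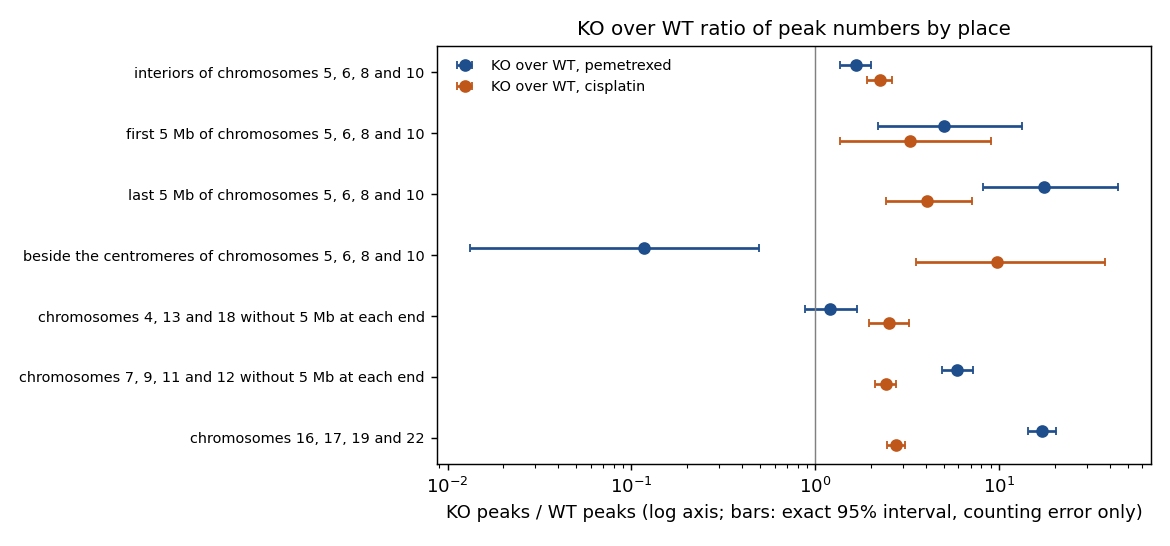
KO over WT ratio of the number of peaks (log axis) for pemetrexed (blue) and cisplatin (orange), by place in the genome; points are ratios of 2 lists and bars their exact 95% intervals for counting error alone. In the interiors of chromosomes 5, 6, 8 and 10 the pemetrexed ratio (1.65) lay below the cisplatin ratio (2.23), while in the last 5 Mb of the same chromosomes it lay above it (17.4 against 4.05).

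The interiors differed from the ends of the same 4 chromosomes. Their last 5 Mb held 122 KO and 7 WT pemetrexed peaks, a ratio of 17.4 (8.21 to 44.3), and 77 KO and 19 WT cisplatin peaks (4.05, 2.43 to 7.09). Their first 5 Mb held 35 KO and 7 WT pemetrexed peaks (5.00, 2.19 to 13.3) and 23 KO and 7 WT cisplatin peaks (3.29, 1.36 to 9.07). In the stretches beside the centromeres the pemetrexed order was the reverse, with 2 KO and 17 WT peaks, while cisplatin gave 39 KO and 4 WT peaks.

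Among other chromosomes without 5 Mb at each end, with the stretches at the centromeres kept, 2 sets were compared, 4, 13 and 18 (gene-poor) and 7, 9, 11 and 12. On the first set the KO over WT ratio was 1.21 for pemetrexed (87 and 72 peaks, 0.874 to 1.67) and 2.51 for cisplatin (226 and 90 peaks, 1.96 to 3.24). On chromosomes 7, 9, 11 and 12 it was 5.90 for pemetrexed (4.87 to 7.21) and 2.41 for cisplatin (2.11 to 2.75). The cisplatin ratio thus varied little between these sets, and the pemetrexed ratio on chromosomes 5, 6, 8 and 10 lay nearer to that of the gene-poor set. No test was made of these differences, since the sets were chosen by position with the counts known.

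The 4 chromosomes were not alike. Chromosome 10 held 46 WT and 106 KO pemetrexed members (ratio 2.30, 1.62 to 3.33), and chromosome 6 held 36 and 77 (2.14, 1.42 to 3.27). Chromosome 5 held 38 and 62 (1.63, 1.07 to 2.51). Chromosome 8 went the other way, with 48 WT and 33 KO pemetrexed members (0.688, 0.428 to 1.09). Without chromosome 8 the pemetrexed ratio over the other 3 was 2.04 (1.63 to 2.56), and the ratio of ratios 0.880 (0.662 to 1.17). The ratio of ratios was 0.357 (0.198 to 0.645) on chromosome 8, 0.804 (0.476 to 1.37) on chromosome 5, 0.898 (0.534 to 1.52) on chromosome 6 and 0.896 (0.557 to 1.45) on chromosome 10. The pemetrexed ratio thus lay farthest below the cisplatin ratio on chromosome 8, and on the other 3 the interval included 1. Set against the 6.61 outside the interiors, the pemetrexed ratio stayed low without chromosome 8 as well (2.04). After cisplatin every one of the 4 held more KO than WT members. The counts were 68 and 138 on chromosome 5, 63 and 150 on chromosome 6, 53 and 102 on chromosome 8 and 63 and 162 on chromosome 10 (WT first), with ratios from 1.92 to 2.57.

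Split by arm, the KO pemetrexed densities differed most from arm to arm as a fold. They ran from 0.789 peaks per 10 Mb on 5p (3 peaks) to 11 on 6p (56 peaks), with 9.57 on 10q (81 peaks), 7.81 on 10p (25), 5.83 on 8p (21), 4.83 on 5q (59), 2.11 on 6q (21) and 1.33 on 8q (12). The WT pemetrexed members had the smallest fold between arms, from 2.29 peaks per 10 Mb on 5q (28 peaks) to 4.38 on 10p (14 peaks). KO cisplatin members ran from 5.26 on 5p (20 peaks) to 15.6 on 10q (132 peaks), and WT cisplatin members from 2.37 on 5p (9 peaks) to 7.5 on 8p (27 peaks). Chromosome arm 6p had the highest KO pemetrexed density, and 6q, the other arm of that chromosome, had the third lowest. Of the 56 members on 6p, 51 lay between 33618499 and 44277819 and the other 5 ended at or before 20530844, a split at the largest gap between them that was made after the positions were seen.

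The KO over WT ratio followed the same arms. It was highest for pemetrexed on 6p, with 56 KO and 12 WT members (4.67, 2.47 to 9.57), followed by 10q (81 and 32, ratio 2.53, 1.66 to 3.94) and 5q (59 and 28, ratio 2.11, 1.32 to 3.43). On 3 arms there were fewer KO than WT pemetrexed members. These were 8q with 12 and 34 (0.353, 0.166 to 0.699), 5p with 3 and 10 (0.300, 0.0531 to 1.17) and 6q with 21 and 24 (0.875, 0.463 to 1.64). After cisplatin all 8 arms held more KO than WT members, with ratios from 1.56 on 8p (0.937 to 2.62) to 2.73 on 10p (1.33 to 6.03). On 8q, 60 KO and 26 WT cisplatin members were found.

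**Figure D2:**
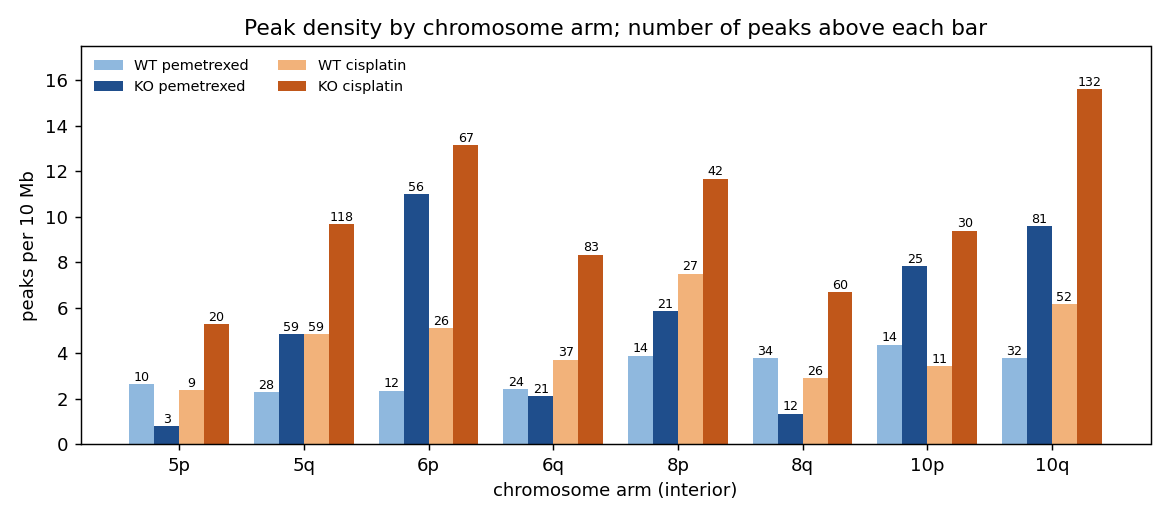
Member peaks per 10 Mb on each interior chromosome arm, for the 4 lists, with the number of peaks above each bar. KO pemetrexed (dark blue) ran from 0.789 on 5p to 11 on 6p, while WT pemetrexed (light blue) stayed between 2.29 and 4.38.

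Density was also set out by distance from the nearer end of the chromosome, with the centromere stretches left out. From 0 to 5 Mb, outside the members, the 4 chromosomes held 39.3 KO pemetrexed peaks per 10 Mb (157 peaks), against 3.50 in the WT pemetrexed list (14), 6.50 in the WT cisplatin list (26) and 25 in the KO cisplatin list (100). From 5 to 10 Mb, the outermost members, the KO pemetrexed density was 4.50 (18 peaks, 2.67 to 7.11), and the others were 3.5, 4 and 11 in the same order. From 20 to 60 Mb KO pemetrexed lay at 6.75 and 7.02 per 10 Mb in 2 successive classes of 20 Mb. Beyond 60 Mb it was 1.24 (18 peaks, 0.733 to 1.96), below WT pemetrexed (2.47, 1.73 to 3.43), WT cisplatin (2.61, 1.85 to 3.59) and KO cisplatin (5.16, 4.06 to 6.46). The intervals of the pemetrexed lists met there. Highest positions ran from 134635409 on chromosome 10 to 180104287 on chromosome 5, so the chromosomes enter this innermost class unequally. The part of that mix in the lower densities was not tested.

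The 5 Mb limit of the rule lay at the drop in KO pemetrexed density between the outer 5 Mb and the next 5 Mb. In the 1 Mb just inside the 5 Mb limit there were 4 KO pemetrexed, 6 WT pemetrexed, 10 KO cisplatin and 2 WT cisplatin members, and in the 1 Mb just outside it 13, 2, 8 and 2 peaks. At the centromere stretches the 1 Mb on the members' side held 0, 2, 3 and 1, and the 1 Mb left out held 1, 3, 3 and 2. With 10 Mb left out at each end, 260 KO and 154 WT pemetrexed members gave a ratio of 1.69.

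**Figure D3:**
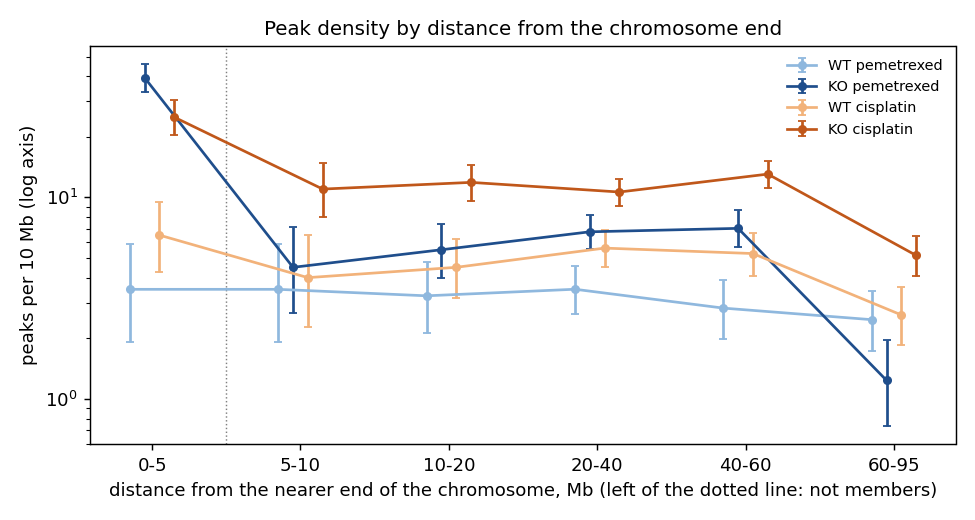
Peaks per 10 Mb (log axis) against distance from the nearer chromosome end, over chromosomes 5, 6, 8 and 10 without the centromere stretches; bars are exact 95% intervals for counting error alone, and points left of the dotted line are not members. KO pemetrexed (dark blue) fell from 39.3 in the outer 5 Mb to 4.50 in the next 5 Mb. It then stood at 5.50, 6.75 and 7.02 up to 60 Mb and at 1.24 beyond, while WT pemetrexed lay between 2.47 and 3.50 throughout.

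Width was not used by the rule. KO pemetrexed members were the widest, with a median of 972 bp (interval 942 to 1044, interquartile range 843 to 1443, range 511 to 15587). KO cisplatin members followed with 772 bp (754 to 791, range 393 to 2482), then WT cisplatin with 596 bp (584 to 614, range 402 to 1408) and WT pemetrexed with 577 bp (570 to 587, range 381 to 980). For each drug the KO interval lay above the WT interval, and the ranges of single peaks overlapped. Medians of all other peaks of the lists were 1187 bp for KO pemetrexed (1160 to 1216), 820 bp for KO cisplatin (811 to 828), 626 bp for WT cisplatin (621 to 636) and 586 bp for WT pemetrexed (581 to 590). Members were thus narrower than the rest of their list in 3 of the lists by intervals that do not meet, and for WT pemetrexed the intervals met. On single chromosomes the KO pemetrexed median ran from 952 bp on chromosome 8 to 1051 bp on chromosome 5.

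Of the KO pemetrexed members, 26 of 278 (9.35%, 6.20 to 13.4%) were at least 2 kb wide, where the share over all peaks of that list was 22.6%. In the last 5 Mb of the same chromosomes the share was 41.8% (51 of 122, 32.9 to 51.1%). Without 5 Mb at each end it was 6.90% on chromosomes 4, 13 and 18 (6 of 87, 2.57 to 14.4%) and 15% on chromosomes 7, 9, 11 and 12 (109 of 726, 12.5 to 17.8%), so a low share was not particular to chromosomes 5, 6, 8 and 10. Of the KO cisplatin members 1 of 552 (0.181%) was that wide, against 0.985% of that whole list. None of 168 WT pemetrexed members was, which allows a share of up to 1.79% (over all its peaks 0%), and none of 247 WT cisplatin members, which allows up to 1.21% (over all its peaks 0.0553%). By arm the 26 wide KO pemetrexed members were 8 on 5q, 8 on 10q, 5 on 6p, 4 on 10p and 1 on 8q. None lay on 5p, 6q or 8p, which held 3, 21 and 21 KO pemetrexed members. At the share of 9.35% few wide ones were to be met there, and an absence beyond it was not tested.

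The covered sequence followed from number and width together. KO pemetrexed members covered 352 kb and WT pemetrexed members 97.7 kb, a ratio of 3.60. KO cisplatin members covered 444 kb and WT cisplatin members 158 kb, a ratio of 2.82. By covered bases pemetrexed thus had the higher KO over WT ratio, where by number of peaks it had the lower one. Outside the interiors the ratios of covered bases were 18.7 and 3.36. The narrowest peaks of the whole lists were 368 bp for WT pemetrexed, 425 bp for KO pemetrexed, 308 bp for WT cisplatin and 370 bp for KO cisplatin, and 5% of peaks were narrower than 453, 715, 489 and 542 bp. The widths at the lower 5% thus stood in the same order as the medians, so the lists differed in their narrow peaks too, and the part of read depth or fragment length in these widths was not tested.

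**Figure D4:**
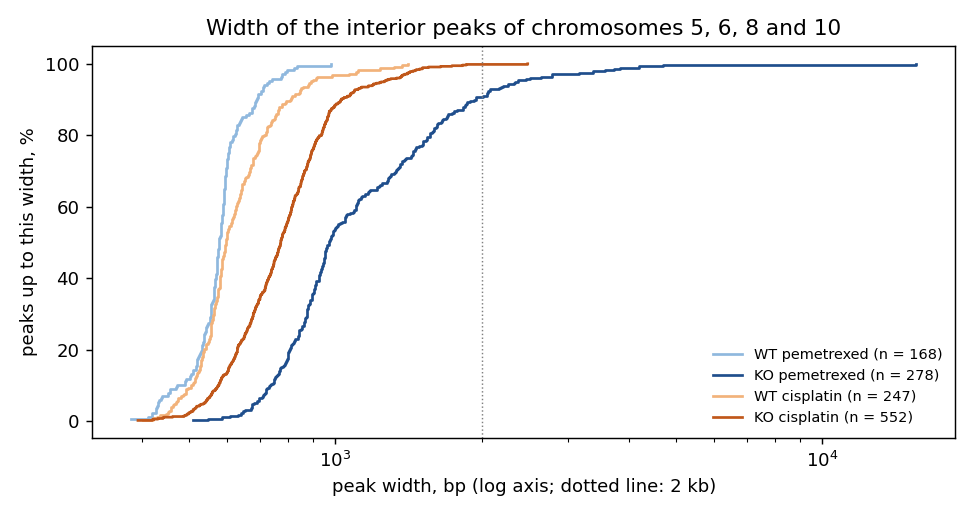
Cumulative share of member peaks against peak width (log axis) for the 4 lists; the dotted line marks 2 kb. The KO pemetrexed curve (median 972 bp) lay to the right of the other 3 (772, 596 and 577 bp) and was the only one with more than 1 peak beyond 2 kb.

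The widest members came from KO pemetrexed cells. The widest spanned 15587 bp on 10q (75275698 to 75291285, hg18), and no other member of that list exceeded 5 kb. The next were 4704 bp on 10p (11841324 to 11846028), 4199 bp on 5q (167619096 to 167623295), 3846 bp on 5q (167625047 to 167628893) and 3732 bp on 6p (44225191 to 44228923). The pair on 5q lay 1.75 kb apart. None of these 5 met a peak of another list. Among all KO pemetrexed members 2.88% met a KO cisplatin peak, 0.360% a WT cisplatin peak and 0% a WT pemetrexed peak. Over all chromosomes these shares were 6.23%, 1.36% and 0.246%, so few meetings were to be found among 5 peaks. On the remaining arms the widest KO pemetrexed members were 2006 bp on 8q (95059741 to 95061747), 1942 bp on 8p (22128721 to 22130663), 1614 bp on 6q (158567442 to 158569056) and 1117 bp on 5p (32405642 to 32406759). The smallest of these arm maxima was on 5p, the arm with the fewest peaks of that list.

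The widest members of the other lists were short by comparison. In the KO cisplatin list they were 2482 bp on 5q (150141021 to 150143503), 1857 bp on 6p (44347732 to 44349589), 1823 bp on 6q (111991978 to 111993801), 1734 bp on 10q (95079767 to 95081501) and 1645 bp on 8q (97343790 to 97345435). In the WT cisplatin list they were 1408 bp on 5q (132633896 to 132635304), 1370 bp on 10p (5576645 to 5578015), 1316 and 1232 bp on 10q (102318488 to 102319804 and 103334190 to 103335422) and 1114 bp on 6p (43046674 to 43047788). The last of these met a KO cisplatin peak, and it was the only one of the 20 widest (5 per list) that met a peak of another list. Meetings were rare among all members too. Between pairs of lists, 0 to 2.88% of the members of 1 list met a peak of the other. Over all chromosomes these shares ran from 0.241 to 7.31%. In the WT pemetrexed list the 5 widest were 788 to 980 bp, 2 on 8q, 2 on 10q (70824138 to 70824959 and 114071339 to 114072136) and 1 on 6q (117004249 to 117005037).

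Spacing was not used by the rule either. The KO pemetrexed members lay closest together, although that list was not the longest here. Of them, 68.7% (191 of 278, 62.9 to 74.1%) lay within 100 kb of another peak of the list, where the share over all chromosomes was 88.3%. The share was 40.8% for KO cisplatin members (225 of 552, 36.6 to 45%, all chromosomes 57.1%), 24.7% for WT cisplatin (61 of 247, 19.4 to 30.6%, all chromosomes 30%) and 7.74% for WT pemetrexed (13 of 168, 4.18 to 12.9%, all chromosomes 13%). The median gap to the nearest peak of the same list was 44.4 kb for KO pemetrexed, 164 kb for KO cisplatin, 492 kb for WT cisplatin and 960 kb for WT pemetrexed. The densities beside these gaps were 5.02, 9.97, 4.46 and 3.04 peaks per 10 Mb in the same order, and their part in the gaps was not tested.

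KO pemetrexed members with a neighbour were wider than lone ones. The 191 with another peak within 100 kb had a median width of 1053 bp (972 to 1171), and 24 of them were at least 2 kb wide. The 87 lone ones had a median of 908 bp (874 to 951), and 2 were that wide. KO cisplatin members showed the same order at a smaller size (813 bp, 788 to 848, against 743 bp, 718 to 769). WT cisplatin members did not differ (595 and 597 bp, intervals 581 to 637 and 582 to 618), and among WT pemetrexed members the intervals also overlapped (596 bp, 567 to 641, and 576 bp, 568 to 586).

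**Figure D5:**
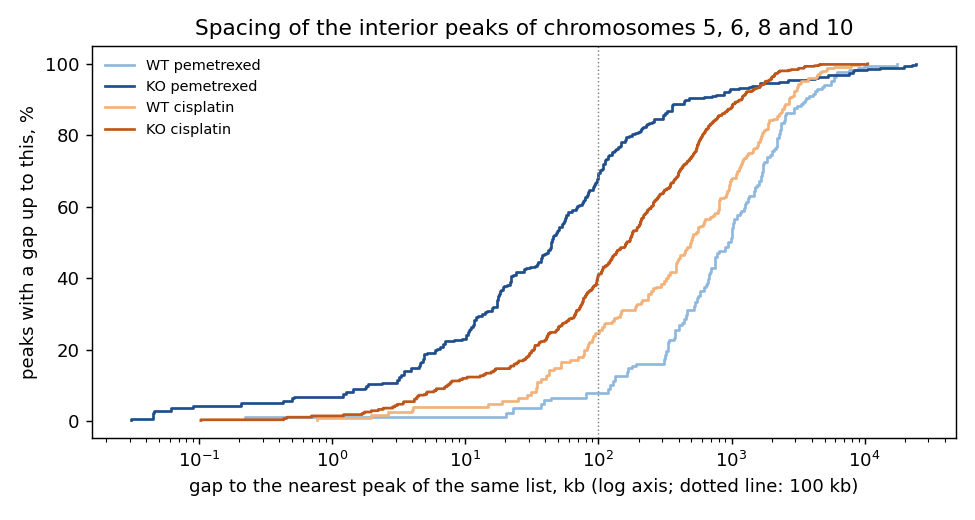
Cumulative share of member peaks against the gap to the nearest peak of the same list (log axis); the dotted line marks 100 kb. At 100 kb the curves stood at 68.7% for KO pemetrexed, 40.8% for KO cisplatin, 24.7% for WT cisplatin and 7.74% for WT pemetrexed.

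Members were next gathered into runs, each peak within 100 kb of the next. The 278 KO pemetrexed members formed 142 runs, of which 25 held 3 or more peaks and together 131 peaks (47.1%). The 552 KO cisplatin members formed 413 runs, 29 of them with 3 or more peaks, which held 111 peaks (20.1%). WT cisplatin had 5 such runs of 214 and WT pemetrexed 1 of 161. Runs of 5 or more numbered 13 in KO pemetrexed and 5 in KO cisplatin, with none in either WT list. Runs were formed from members alone, so they are not shown to be particular to these interiors. The share of KO pemetrexed peaks within 100 kb of another was 68.7% here and 89.4% among all other peaks. On chromosomes 4, 13 and 18 without 5 Mb at each end it was 66.7%.

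The longest KO pemetrexed runs lay on 5q and 10q. A run of 11 peaks covered 24904 bp within 170 kb on 5q (167617352 to 167787146) and included the wide pair named above. Another of 11 covered 27193 bp within 338 kb on 10q (75181164 to 75519171) and included the widest member. A run of 10 covered 9505 bp within 271 kb on 5q (133867280 to 134138226). Within these 3 stretches the KO cisplatin list had 2, 4 and 3 members and the WT cisplatin list 0, 0 and 1, and there was no WT pemetrexed member in any of them. At the 3.04 WT pemetrexed members per 10 Mb of the interiors, stretches this short would mostly hold none.

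The other 10 KO pemetrexed runs of 5 or more peaks were spread over 6 arms. Those on 5q held 7 peaks (137749644 to 137855345) and 5 peaks (138620121 to 138767007). Those on 6p held 6 (34507233 to 34641139), 5 (37777199 to 37860889) and 5 (44210903 to 44277819), and that on 6q held 7 (158459017 to 158616982). None of the 13 runs contained a WT pemetrexed member, and 6 of them contained no member of any other list. Single runs were 66.9 to 338 kb long, and the interiors held 3.04 WT pemetrexed members per 10 Mb. Few such members were thus to be met in the runs at that density, and an absence beyond it was not tested. Those 6 were 2 on 6p, 2 on 8p (8130466 to 8345123 and 22984734 to 23079792, 5 peaks each), 1 on 10p (21417795 to 21644396, 6 peaks) and 1 on 10q (104925308 to 105037396, 7 peaks). Peaks covered 2.59 to 14.7% of the length of a run, so the stretches between the called peaks made up most of each.

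The longest KO cisplatin run had 11 peaks within 372 kb on 6q (158098048 to 158469577), a stretch with 2 KO pemetrexed members and 1 WT cisplatin member that overlapped the start of the KO pemetrexed run of 7 there. The next had 6 peaks on 10q (99303280 to 99601903) and 5 peaks on 6p (41604067 to 41843342), the latter tied with 2 others. In WT cisplatin the longest runs had 3 peaks, as on 5q (141654973 to 141811359 and 172364095 to 172402578) and 6q (158611068 to 158688957), with 2 others equal to them. The only WT pemetrexed run of 3 lay within 65.5 kb on 8q (99927035 to 99992545), with 1 WT cisplatin member and no KO member. The 2 next, of 2 peaks each and tied with 3 others, lay on 5q (122397070 to 122398464) and 8p (27479423 to 27518020).

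In windows of 1 Mb the same unevenness appeared. Of 555 windows over the interiors, 88 (15.9%, 12.9 to 19.2%) held a KO pemetrexed member, 136 (24.5%) a WT pemetrexed, 170 (30.6%) a WT cisplatin and 267 (48.1%) a KO cisplatin member. Over all chromosomes the shares were 23.7%, 24.4%, 33.4% and 51.1% in the same order. The KO pemetrexed list, with more peaks than the WT pemetrexed list, reached fewer windows both here and over all chromosomes (708 against 731). In the interiors it needed 19 windows (3.42%) for 50% of its members, where the WT pemetrexed list needed 52, the WT cisplatin list 48 and the KO cisplatin list 62. Over all chromosomes 2.74% of windows held 50% of the KO pemetrexed peaks. After pemetrexed, 74 windows (13.3%) held more KO than WT peaks and 109 (19.6%) more WT than KO peaks. Over all chromosomes the shares were 21.1% and 15.9%, in the opposite order. After cisplatin the shares were 38.4% (213 windows) and 14.1% (78 windows), against 41.3% and 9.99% over all chromosomes.

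The windows with the most members lay on 4 chromosomes and held no WT pemetrexed peak. Most of the 555 windows held none either, since 136 (24.5%) had a WT pemetrexed member. The highest, on 6q (158000001 to 159000000), had 13 KO cisplatin, 8 KO pemetrexed and 4 WT cisplatin members. It was followed by 5q (133000001 to 134000000) with 10, 10 and 2 in the same order, 6p (43000001 to 44000000) with 14, 5 and 2, and 8p (22000001 to 23000000) with 8, 4 and 7. The fifth, on 10q (75000001 to 76000000), had 5 KO cisplatin, 12 KO pemetrexed and no WT cisplatin members. On 6q, 6p and 8p KO cisplatin had the most peaks, on 5q the KO lists were level, and on 10q KO pemetrexed had the most.

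The windows with the most KO pemetrexed members among those without a WT pemetrexed peak, a condition of their choice, were that on 10q with 12 and, with 11 each, 5q (167000001 to 168000000), 6p (34000001 to 35000000) and 10q (104000001 to 105000000). The window on 5q from 133000001 to 134000000 followed with 10. KO cisplatin had 2 to 10 members in these 5 windows and WT cisplatin 0 to 2.

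Windows rich in KO pemetrexed peaks were also rich in cisplatin peaks of both genotypes. In the 39 windows with 3 or more KO pemetrexed members (212 of the 278), 84.6% held a KO cisplatin member and 76.9% a WT cisplatin member. In the 467 windows with no KO pemetrexed member the shares were 42.6% and 24.2%. The same was seen in windows elsewhere in the genome, with 96.2% and 85.2% where there were 3 or more KO pemetrexed peaks and 38.7% and 20.5% where there was none. For WT pemetrexed the 2 shares were alike, 23.1% (9 of 39) and 22.9% (107 of 467), with 40.6% and 41.2% in the 32 windows with 1 and the 17 windows with 2 KO pemetrexed members. In those other windows the WT pemetrexed share was 42.6% where there were 3 or more KO pemetrexed peaks (156 of 366) and 19.4% where there was none (353 of 1818). Of the WT pemetrexed members 77.4% (130 of 168) lay in windows without a KO pemetrexed member, against 59.5% of WT cisplatin and 58.0% of KO cisplatin members. These are descriptions of single libraries, since windows are not replicates and neighbouring windows share regional features.

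Distances between lists were also taken. From a KO pemetrexed member the nearest KO cisplatin peak was a median of 97.9 kb away, the nearest WT cisplatin peak 264 kb and the nearest WT pemetrexed peak 1178 kb. This is also the order of the densities of those lists (9.97, 4.46 and 3.04 peaks per 10 Mb), and their part in the distances was not tested. From a WT pemetrexed member the medians were 353 kb to KO cisplatin, 643 kb to WT cisplatin and 2099 kb to KO pemetrexed. A KO pemetrexed peak lay within 100 kb of 10 of the 168 WT pemetrexed members (5.95%), of 43 of the 247 WT cisplatin members (17.4%) and of 129 of the 552 KO cisplatin members (23.4%). Neither these shares nor the medians were taken over all chromosomes, so they are not read as a trait of the interiors. The KO pemetrexed density was 5.02 per 10 Mb here and 20.6 outside, and its part in the shares was not tested.

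Few members lay at exactly the same place in different lists. Of 1231 regions covered by members, 14 (1.14%) were covered by 2 lists and none by 3. The KO lists shared 8 regions, which were 1.45% of the KO cisplatin members (8 of 552, 0.628 to 2.84%) and 2.88% of the KO pemetrexed members (8 of 278, 1.25 to 5.59%). Over all chromosomes the shares were 7.31% and 6.23%. The member shares were thus below those of the whole lists, and outside the interiors alone they were 8.11% (7.29 to 9%) and 6.42% (5.76 to 7.14%). The density of KO pemetrexed peaks was also lower in the interiors, 5.02 against 20.6 per 10 Mb, and its part in the lower overlap was not tested.

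The genotypes shared 5 regions after cisplatin, 2.02% of the WT (5 of 247, 0.660 to 4.66%) and 0.906% of the KO cisplatin members. The shares over all chromosomes, 1.77% and 0.7%, were close to these. The WT cisplatin and KO pemetrexed lists shared 1 region, on 10q (73794797 to 73796186), 0.405% of the WT cisplatin and 0.360% of the KO pemetrexed members, against 3.98% and 1.36% over all chromosomes.

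No WT pemetrexed member met a peak of any other list. A count of 0 of 168 allows a share of up to 1.79%, and over all chromosomes 1.41% of that list met the KO pemetrexed list, 1.19% the KO cisplatin list and 1.08% the WT cisplatin list, so a difference from the whole list was not detectable at this number. Seen from the other lists, 0 of 278 KO pemetrexed (0.246% over all chromosomes), 0 of 552 KO cisplatin (0.241%) and 0 of 247 WT cisplatin members (0.553%) met a WT pemetrexed peak.

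At the 8 places shared by the KO lists, 6 had a reciprocal overlap of at least 50%. The shared stretch ran from 310 to 1042 bp with a median of 717 bp, and in 4 of the 8 the cisplatin peak lay wholly inside the pemetrexed peak. The 5 longest were 1042 bp on 10q (pemetrexed peak 76618346 to 76619931), 1019 bp on 5q (167674777 to 167677567), 802 bp on 6q (119599740 to 119600754), 748 bp on 6p (43010854 to 43011874) and 686 bp on 6q (158261070 to 158261981). The site on 5q is within the run of 11 KO pemetrexed peaks there. The other 3 places were on 6p (43715956 to 43716864), 5q and 10q. The 5 places shared by the WT and KO cisplatin lists were 3 on chromosome 6 and 1 each on 5q (172367194 to 172367911) and 8p (25217811 to 25218724). None of the 8 places shared by the KO lists was on chromosome 8. That chromosome held 33 of the 278 KO pemetrexed members, so few of 8 places were to be met there.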

How the data were processed

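γH2AX ChIP-seq libraries of DLD1 cells were processed by the authors with Bowtie (no version given) and MACS 1.4 on genome build hg18, per the submitters' processing notes. The 4 deposited peak lists, 1 per treated library, hold a chromosome, a start and an end per peak, per the file headers, and no height, score, p-value or read count. The control library, threshold and filters are not stated there, library depth is unknown, and whether starts count from 0 or 1 is not stated, so positions are printed as listed. No list held duplicated or self-overlapping peaks (0 of each). The 2 untreated libraries were not analysed here.

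No hg18 genome or gene annotation was used here, and positions were not converted between builds, so no peak is assigned to a gene and no sequence is printed. Groups were taken from sample titles. The members, regions and comparisons were chosen with earlier results of these data known. Peak numbers were set against each other as ratios, each with its Clopper-Pearson (exact) 95% interval, ratios of ratios with the exact conditional interval, shares with exact binomial intervals and medians with exact order-statistic intervals. Density intervals are exact for a count. Where a count was 0, the limit is 3 counts of the total. Peaks met where they overlapped by at least 1 bp. Gaps were measured from edge to edge over all peaks of a list, and windows of 1 Mb took peaks by midpoint. Named regions were the 5 widest members per list and the widest KO pemetrexed member per arm, regions in 3 or more lists, the 5 windows with the most members, the 5 with the most KO pemetrexed and no WT pemetrexed peaks, the 3 longest runs per list, and the 5 longest stretches shared by the KO lists. The KO pemetrexed runs of 5 or more peaks and the single shared places were added after their values were seen. Alternatives were joining peaks within 10 or 100 kb, peaks of at least 600 bp, 10 Mb left out at the ends, leaving out a chromosome, and other overlap limits. Stricter caller thresholds could not be applied. Functions were tested on simulated peaks. Python 3.11.15, pandas 2.3.3 and SciPy 1.17.1 were used.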

Additional observations from a re-analysis of the deposited data

Results flagged for a closer look

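On chromosome 8 and on 3 arms the KO over WT ratio of member numbers was below 1 for pemetrexed and above 1 for cisplatin. The ratios were 0.688 and 1.92 on chromosome 8, 0.353 and 2.31 on 8q, 0.300 and 2.22 on 5p, and 0.875 and 2.24 on 6q. On 3 arms the pemetrexed over cisplatin ratio lay above 1 in WT and below 1 in KO cells. It was 1.11 and 0.150 on 5p, 1.31 and 0.200 on 8q, and 1.27 and 0.833 on 10p. Each of these is a pair of opposite directions with 1 library per group, and the difference between them was not tested.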

How the results depend on the processing

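For 16 results, 87 values under other settings were computed. Of these, 71 kept direction and stayed within the interval of the value reported (for covered bases, within 1.5 times), 14 moved and 2 reversed. With peaks within 100 kb joined, the KO over WT ratio of peaks for pemetrexed turned to 0.882, pemetrexed over cisplatin in KO moved to 0.344, the ratio of ratios to 0.457 and covered bases for pemetrexed (gaps included) to 13.5. With peaks of at least 600 bp, which keep 46 of 168 WT pemetrexed, 275 of 278 KO pemetrexed, 117 of 247 WT cisplatin and 477 of 552 KO cisplatin members, the KO over WT ratios were 5.98 for pemetrexed and 4.08 for cisplatin, pemetrexed over cisplatin in WT was 0.393, the ratio of ratios turned to 1.47 and covered bases gave 11.2 and 4.64. Without chromosome 8 the pemetrexed ratio was 2.04. At a distance of 1 Mb, 92.8% of KO pemetrexed members had a neighbour. Within 10 kb of each other, 5.98% of KO cisplatin members met a KO pemetrexed peak, 7.69% of WT cisplatin members a KO cisplatin peak and 4.05% a KO pemetrexed peak, the last falling to 0% at a reciprocal overlap of 50%. These settings were applied to members alone. The shares over all chromosomes (7.31%, 1.77% and 3.98% in the same order) are at 1 bp, so they are not the like values for 10 kb. The cause of the changes under other settings was not tested beyond the fewer or joined peaks that each setting leaves. Unknown read depth limits every comparison of numbers and widths between lists. No paired analysis was possible because there is 1 library in each group.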
